A study of Rattus norvegicus with 7 samples.

Results

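The genes described are 10 heat shock proteins of the rat, Hspa1a, Hspa1b, Hspa8, Hspa4, Hsp90ab1, Hspb1, Cryab, Hspd1, Hspe1 and Serpinh1. Probe sets with a single symbol cover 4736 gene symbols on the arrays, 8 of the members among them. The members were taken by name, and every probe set that the platform annotation gives to any member symbol was used, 25 in all. Of the 25, 18 carry a single member symbol, 4 carry Hspa1a and Hspa1b together, and 3 also carry a gene outside the group (Haus8l2 with Hspa8 on 2, Asb2 with Hspb1 on 1). Hspa1b and Hspa8 thus have no probe set of their own, and their values are given as Hspa1a/Hspa1b and Haus8l2/Hspa8. Serpinh1 works in the endoplasmic reticulum, so the name "cytosolic and mitochondrial" covers the other members and not this one.

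The study exposed primary cultures of Wistar rat hippocampus to grape seed extract, a source of polyphenols, for 24 h. Neurons received 0, 1 or 10 µg/ml and astrocytes received 0, 1, 10 or 100 µg/ml, and each of these 7 combinations was measured on 1 Affymetrix array. All cultures shared a DMEM medium with glutamine, N1 supplement, penicillin and streptomycin. The age is labelled 17-day-old, and the labels do not say whether this counts from conception or birth. The number of arrays limits the precision. No combination has a second array, and the labels do not say whether the arrays come from separate cultures. P-values therefore measure only the spread between these arrays.

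Heat shock proteins are chaperones that keep other proteins folded, refold damaged ones or hold them until they can be degraded. The family of HSP70 proteins includes stress-induced forms (Hspa1a, Hspa1b) and a form made at all times (Hspa8), with Hspa4 as a relative that helps HSP70 release its nucleotide. Hsp90ab1 matures kinases and receptors, Hspb1 and Cryab are small ATP-independent holdases, and Hspd1 and Hspe1 form the folding chamber of the mitochondrial matrix. Under stress, the factor HSF1 binds inverted repeats of the unit GAA in promoters of many of these genes. Astrocytes are known to make small heat shock proteins in reactive states.

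The repeats are printed to show which members carry this shared sequence feature near their start. Windows from 250 bases before to 50 after the transcription start came from RefSeq (build GRCr8) and were at hand for 8 of the 10 members. Each was searched on both strands for GAANNTTC and TTCNNGAA, each its own reverse complement, and for the longer GAANNTTCNNGAA and TTCNNGAANNTTC, which are reverse complements of each other and contain the shorter motifs. Capitals mark the matched bases, with flanks in lower case, 5′ to 3′ on the strand of the gene.
Serpinh1, chr1:163062991-163063019, minus strand: ttccaactTTCCAGAAGTTTCttaggaca
Hspa8, chr8:50080293-50080321, plus strand: gcgagcgtGAAAGTTCCAGAAcgctgcgg
Hspa8, chr8:50080451-50080479, plus strand: cggaacccTTCTGGAAGGTTCtaagacag
Hspd1, chr9:64084256-64084285, minus strand: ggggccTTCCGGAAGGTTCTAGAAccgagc
Hspe1, chr9:64084256-64084285, plus strand: gctcggTTCTAGAACCTTCCGGAAggcccc
Hspb1, chr12:26432415-26432438, minus strand: caactagaGAAGTTTCcagatggg
Hspb1, chr12:26432395-26432418, minus strand: tgggggcaGAACCTTCctggccct

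The longer motifs were found in 4 of the 8 windows (Serpinh1, Hspa8, Hspd1 and Hspe1), against 267 of all 33469 windows of the table, or 0.798%. The shorter motifs were found in 5 of the 8, with Hspb1 added, against 15.9% of all windows. In Serpinh1 the match begins 35 bases upstream of the window's transcription start, and in Hspa8 the matches begin 213 and 55 bases upstream. Hspd1 and Hspe1 lie head to head on chromosome 9 (64073610 to 64084332 and 64084327 to 64087415), and the same 18 matched bases, 242 bases upstream of the start of Hspd1 and 65 upstream of that of Hspe1, were read on opposite strands. The windows of Hspa1a, Hspa4 and Hsp90ab1 held none of these letters. A match is a description of sequence and says nothing about binding in these cultures. The RefSeq span of Serpinh1, Hspd1, Hsp90ab1 and Hspa4 begins farther upstream than the start used. Hspa1a (chromosome 20, 3859756 to 3863800) and Hspa1b (3875411 to 3877866) are neighbouring copies. RefSeq also lists pseudogenes named after Hspa8 (33), Hsp90ab1 (22), Hspd1 (20) and Hspe1 (1), so probes for these genes may share signal with copies.

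Signals are the deposited intensities on a linear scale, which have no absolute unit, so levels are compared between arrays for a probe set and not between probe sets. Probe sets of a gene are numbered from the brightest. Of the 25 probe sets, 21 were bright enough to be tested, with a mean log2 signal above the median of all signals (79.9) in at least 1 cell type. The 4 left out were 3 of the 4 for Hspa1a/Hspa1b and the one for Asb2/Hspb1. Pearson's r between arrays, over the log2 signals of probe sets, was 0.987 to 0.988 among neurons and 0.931 to 0.984 among astrocytes. In astrocytes the median signal of the arrays was 84.1, 79.9, 73.4 and 65.4 at 0, 1, 10 and 100 µg/ml.

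Markers of other cells differed between the cultures. All 6 neuron markers tested were higher in neurons by limma at an adjusted p below 0.05 (summed signal 12645.6 to 13221.6 against 779 to 1660.2 in astrocytes). Of these, Nefl, Snap25 and Syn1 met the brightness filter in neurons only, where they are high, which favours a difference. Syt1 was at the floor in astrocytes but also dim in neurons (21.6 to 30.9), and was not tested. Astrocyte markers went both ways. Their summed signal was 26989.1 to 27392.0 in neurons and 26610.3 to 32054.1 in astrocytes, with 2 of 7 higher in neurons (Slc1a3, 1.79, and Aqp4, 1.16, in log2) and 2 higher in astrocytes (S100b, -1.96, and Sparcl1, -0.75). Fibroblast markers summed to 14712.1 to 17239.6 in neurons and 46687.5 to 59703.1 in astrocytes, with 5 of 7 higher in astrocytes. Oligodendrocyte markers summed to 2283.9 to 2403.4 and 8827.6 to 14099.4, with 4 of 6 higher in astrocytes and Mog and Mobp at the floor in neurons. Mbp, Mobp and, among the fibroblast markers, Lum met the brightness filter in astrocytes only, which favours a difference. Microglial markers summed to 507 to 815 and 2374.2 to 5911.3, with all 3 tested (Aif1, C1qb and Cd53) higher in astrocytes. The others were too dim to test. Itgam was at the floor in neurons and near it in astrocytes (13.7 to 29.0). Ptprc (40.4 to 63.8 in neurons, 38.9 to 70.0 in astrocytes) and Csf1r (8.3 to 29.0 and 7.6 to 25.8) overlapped, and Cx3cr1 (12.1 to 27.2 and 28.3 to 100.0) did not. The astrocyte array at 100 µg/ml had the lowest sum of its cell type for neuron, astrocyte, oligodendrocyte and microglial markers. Among the oligodendrocyte markers, Pdgfra read 3730.1, 4949.7, 7779.8 and 1231.8 over the astrocyte doses, while Mbp was highest at 100 µg/ml (5222.2). The part of these cells in the results was not tested, and in such bulk samples fewer cells of a type and less RNA per cell cannot be told apart.

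The first comparison asks which heat shock genes differ between neurons and astrocytes, over 3 arrays against 4. Hspb1 was about 5-fold higher in astrocytes on 3 of its 4 probe sets, and Serpinh1 was higher in astrocytes by a smaller amount. Hspa1a was also higher there, but entered the test only through the brightness of its astrocyte arrays. Hspa4, Hspd1 and Hsp90ab1 were higher in neurons on 1 probe set each. Cryab, Hspe1, Haus8l2/Hspa8 and Hspa1a/Hspa1b did not pass the test. In all, 3 of the 21 member probe sets were higher in neurons (18.0% of all 4709 tested) and 5, Hspa1a included, were higher in astrocytes (12.2% of all), by limma with Benjamini-Hochberg adjustment over all tested probe sets and a threshold of 0.05. The median difference of neurons minus astrocytes was 0.12 log2 for the members and 0.16 for all tested probe sets. Without the astrocyte array at 100 µg/ml, Hspa1a went from -1.43 to -1.10, Hspa4 from 0.97 to 0.80 and Hspa1a/Hspa1b from -0.50 to -0.01. Serpinh1 went from -0.55 to -0.45, Hspb1 from -2.37 to -2.31 and Hspd1 from 0.40 to 0.41 (brightest probe sets).

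**Figure D1:**
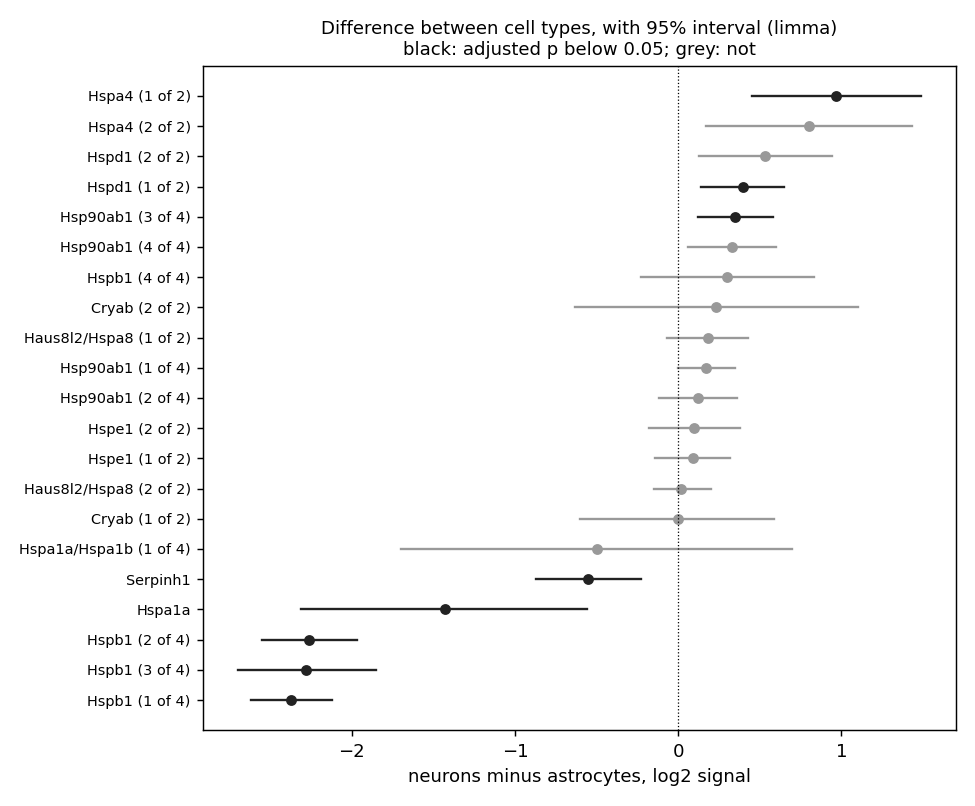
Differences between neurons (3 arrays) and astrocytes (4 arrays) in log2 signal for the 21 tested probe sets, as points with 95% intervals from limma; probe sets of a gene are numbered from the brightest. The 3 bright Hspb1 probe sets lie between -2.37 and -2.26, far from the others, and the fourth lies at 0.30.

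Most calls for the other genes were lost when a neuron array was left out, while the differences kept their direction. On the brightest probe sets they were then 0.95 to 0.98 for Hspa4 and 0.35 to 0.44 for Hspd1. For Serpinh1 they were -0.61 to -0.52, and for Hspa1a -1.50 to -1.29. Leaving out the neuron array at 0, 1 or 10 µg/ml leaves 2 neuron arrays. The share of all tested probe sets that passed then fell from 30.2% to 19.9%, 20.6% and 21%. Of the members 3, 4 and 3 probe sets passed. The 3 Hspb1 probe sets were among them each time, and the only other was Serpinh1, when the 1 µg/ml array was left out.

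The second comparison asks how signals follow the dose. A slope of log2 signal on log10 of the dose plus 1 was fitted in each cell type. In astrocytes Hspa1a/Hspa1b rose with a slope of 0.94 (95% interval 0.35 to 1.54, SE 0.25, limma adjusted p = 0.0425), and no other member probe set passed. So 1 of 21 member probe sets rose, against 5.03% of all 4709, and 0 fell, against 15.5% of all. At an unadjusted p under 0.05, 5 of the 21 passed in either direction, against 1770 of all 4709. The median slope in astrocytes was 0.06 for the members and -0.13 for all tested probe sets. In neurons 0% of the 4709 passed in limma, members included (90 at an unadjusted p under 0.05, 0 of them members). The slopes of the cell types differed in 0.0212% of probe sets, or 1 of 4709, and in 0 members (523 and 0 at an unadjusted p under 0.05).

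The single call in astrocytes rested on the fit. It was lost without the astrocyte array at 1 µg/ml (adjusted p = 0.131), where only 1.65% of all probe sets passed. It was also lost without any of the neuron arrays, which enter through the shared estimate of the spread (adjusted p = 0.139 to 0.145). Without a neuron array the slope stayed at 0.94, and 0.508% to 0.637% of all probe sets passed. Without the array at 100 µg/ml the slope was -0.04 (adjusted p = 0.95), and 3.08% of all probe sets passed. The 1 member call was then the second Cryab probe set (slope -0.98, limma adjusted p = 0.024). Without the array at 10 µg/ml, 6 member probe sets passed, of Hspa1a/Hspa1b, Hspa1a, Cryab and Hspa4, and the share of all probe sets that passed in either direction was 35.8%, against 20.6% with every array.

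The last comparison sets each treated array beside the untreated one of the same cells, 1 against 1, with no test and no error. These changes share their untreated array. Each is given as log2 after subtracting the median change of all tested probe sets on that array, which was -0.26 in astrocytes at 100 µg/ml, -0.10 at 10 µg/ml and within 0.01 of 0 on the others. At 100 µg/ml, 3 of 21 member probe sets were at least 2-fold higher (9.41% of all 4252 tested in astrocytes) and 0 were at least 2-fold lower (13.5% of all). The 3 were Hspa1a/Hspa1b, Hspa1a and Cryab on 1 of its 2 probe sets. On the deposited scale, without centring, 2 were higher (Hspa1a/Hspa1b and Hspa1a, with 6.63% of all) and 1 lower (the second Hspa4 probe set, with 19% of all). After centring, 0 members reached 2-fold in either direction on the other treated arrays. The share of all probe sets that did was 0.561% and 0.741% for neurons, and 2.07% and 6.82% for astrocytes, at 1 and 10 µg/ml. As deposited, the second Cryab probe set was 2.06-fold lower in astrocytes at 10 µg/ml (centred change -0.94). The members' median change at 100 µg/ml was 0.29 centred, with 19 of 21 above 0, and 0.03 as deposited, with 12 of 21 above 0. At 1 µg/ml in astrocytes the members' median was -0.15 centred, with 3 of 21 above 0. The centred median of all probe sets is 0 by construction.

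**Figure D2:**
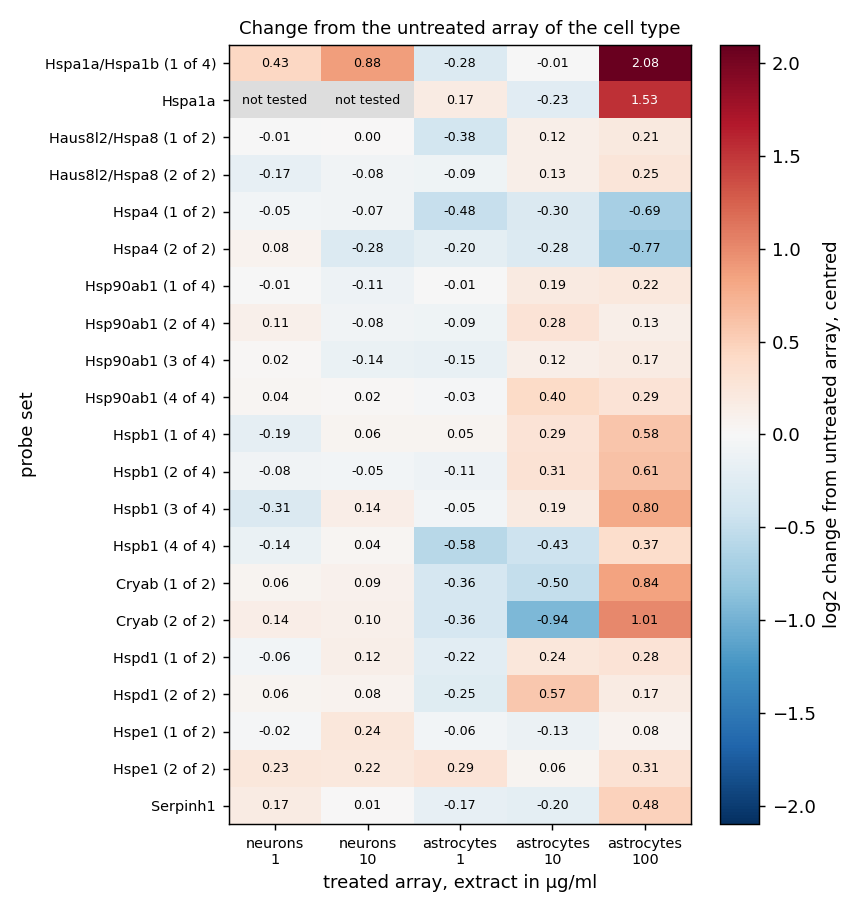
Centred log2 changes of the 21 tested probe sets (down the side) on each treated array (across, dose in µg/ml) from the untreated array of the same cell type, 1 array against 1; red is higher and blue lower. The column for astrocytes at 100 µg/ml runs from -0.77 (Hspa4) to 2.08 (Hspa1a/Hspa1b).

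**Figure D3:**
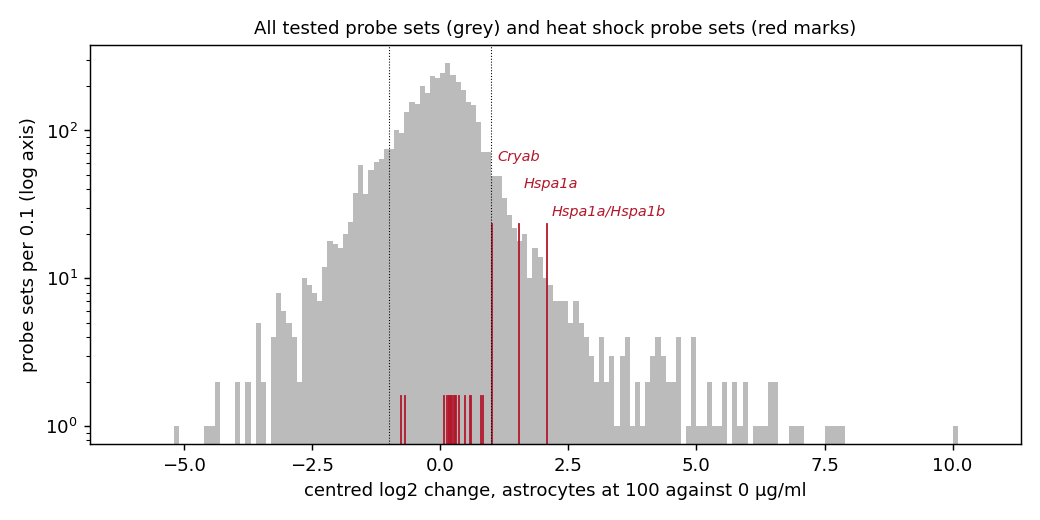
Centred log2 changes in astrocytes between 0 and 100 µg/ml for all 4252 tested probe sets (grey, number per bin of width 0.1 on a log axis), with member probe sets as red marks and 2-fold as dotted lines. The tall marks are the 3 at 2-fold or more; the remaining 18 lie inside the dotted lines.

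The stress-induced HSP70 genes gave the largest change with dose among the members. The brightest Hspa1a/Hspa1b probe set read 280.1, 376.3 and 512.9 in neurons (0, 1 and 10 µg/ml). In astrocytes (0, 1, 10 and 100 µg/ml) it read 417.6, 341.7, 387.3 and 1472.3, and later sentences keep these orders. The 100 µg/ml array stood above every other array, while the lower doses in astrocytes stayed in the range of the neuron arrays. As deposited, the signal at 100 µg/ml was 3.53-fold that of the untreated astrocytes, a centred change of 2.08 that ranked 131 from the top among 4252 probe sets. In neurons each dose lay above the one before, with centred changes of 0.43 and 0.88. The latter ranked 20 from the top among 4453 probe sets, at 1.83-fold as deposited. The neuron slope was 0.79 (SE 0.51) and did not pass in limma (adjusted p = 1). The slope difference between the cell types was 0.15 (95% interval -1.21 to 1.51), which leaves room for a large difference either way. Between cell types the difference was -0.50 (SE 0.52, limma adjusted p = 0.504). The other 3 probe sets of the pair read low on all arrays, with means of 5.5 to 17.7, under the floor of 17.9, and carry no comparison.

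The probe set for Hspa1a alone read 66.0, 87.6 and 87.9 in neurons and 177.7, 199.3, 141.5 and 428.2 in astrocytes. Every astrocyte array was above every neuron array. The means were 80.5 ± 12.6 (SD, n = 3) and 237 ± 130 (SD, n = 4), and the fit gave 2.70-fold more in astrocytes (log2 difference -1.43, SE 0.38, limma adjusted p = 0.0234). It met the brightness filter in astrocytes only, where it is high, which favours a difference, and with no filter it did not pass (adjusted p = 0.0751). At 100 µg/ml it was 2.41-fold the untreated signal as deposited, a centred change of 1.53. At 1 and 10 µg/ml the centred changes were 0.17 and -0.23, so this probe set, like the shared one, was far from the untreated array at the top dose and near it below. Its slope of 0.55 (SE 0.26) did not pass (limma adjusted p = 0.168).

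**Figure D4:**
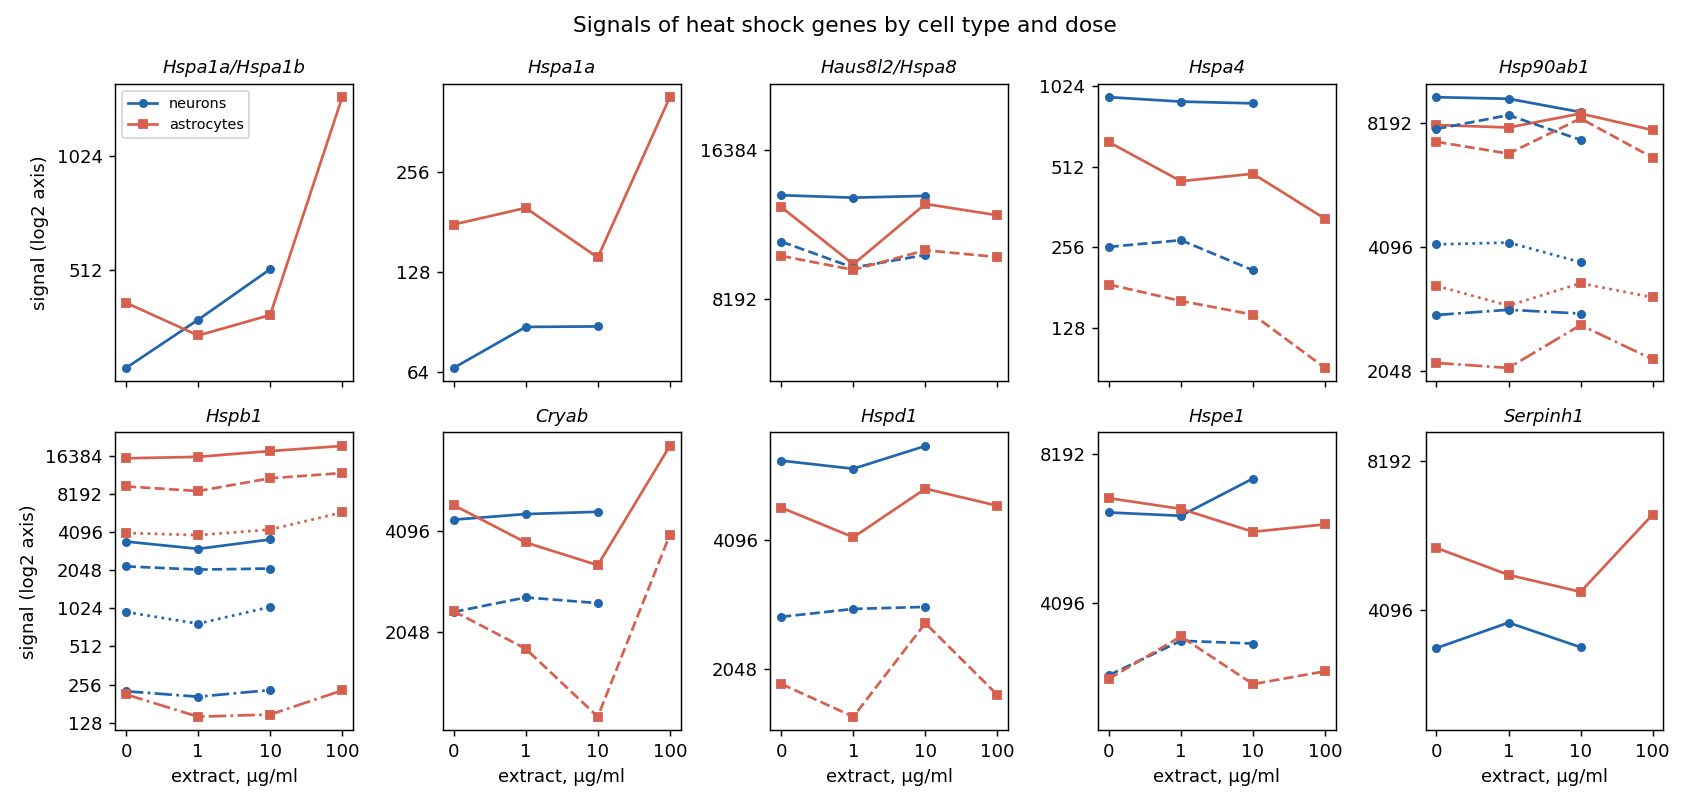
Signals on a log2 axis against dose in µg/ml (equal steps) for neurons (blue circles) and astrocytes (red squares), 1 array per point; each line style is 1 probe set, and probe sets with any array at the floor are left out. Hspa1a/Hspa1b reaches 1472.3 in astrocytes at 100 µg/ml, and the 3 bright lines of Hspb1 separate by cell type at every dose.

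Hspa8, the HSP70 made without stress, is read together with Haus8l2, and the values cannot be given to either gene. The brighter probe set read 13288.2, 13140.1 and 13246.7 in neurons and 12573.3, 9637.8, 12759.5 and 12106.4 in astrocytes. All neuron arrays were above all astrocyte arrays on this probe set, and the astrocyte array at 1 µg/ml was the low one. The second read 9488.3 to 10708.7 in neurons and 9389.3 to 10285.6 in astrocytes, and its groups overlap. Differences between cell types were 0.18 (95% interval -0.07 to 0.43) and 0.02 (-0.15 to 0.20), which bounds any difference to a small one. Centred changes at 100 µg/ml were 0.21 and 0.25, and -0.05 and -0.01 as deposited.

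Hspa4, a nucleotide exchange factor for HSP70, was the member highest in neurons relative to astrocytes. Its brighter probe set read 929.1, 894.5 and 881.1 in neurons and 631.9, 452.0, 481.7 and 327.5 in astrocytes. All neuron arrays were above all astrocyte arrays, 1.96-fold in the fit (log2 difference 0.97, SE 0.22, limma adjusted p = 0.0138). The second probe set read 257.2, 272.5 and 210.5 in neurons and 186.3, 161.8, 143.9 and 91.1 in astrocytes, with a difference of 0.80 (SE 0.27) that did not pass (limma adjusted p = 0.0603). On both probe sets the lowest array was astrocytes at 100 µg/ml. The centred changes there were -0.69 and -0.77, and the deposited signals were 1.93-fold and 2.05-fold below the untreated array. The astrocyte slopes of -0.39 (95% interval -0.70 to -0.08) and -0.49 (-0.82 to -0.16) did not pass (limma adjusted p = 0.0773 and 0.0505). The second passed with a constant prior (adjusted p = 0.0358), with no floor (0.049) and without the 10 µg/ml astrocyte array (0.0219). Against the 1 µg/ml array in place of the untreated one, the centred change of the brighter probe set was -0.23.

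Hsp90ab1, the constitutive cytosolic HSP90, varied little. Its 4 probe sets gave differences of 0.17, 0.12, 0.35 and 0.33 log2 towards neurons, and probe set 3 of 4 passed (SE 0.10, limma adjusted p = 0.0294). That call was lost in 7 of 14 alternatives, among them centring on the median (adjusted p = 0.242) and dose as a block (0.0588). That probe set read 4162.6, 4204.5 and 3767.2 in neurons and 3301.3, 2953.7, 3348.6 and 3094.5 in astrocytes, without overlap. The adjusted p of the other 3 ranged from 0.069 to 0.415. The brightest read 9481.7, 9397.5 and 8722.1 in neurons against 8113.9, 8002.1, 8651.1 and 7886.6 in astrocytes, close to each other. Centred changes at 100 µg/ml were 0.13 to 0.29, and -0.13 to 0.03 as deposited, so the direction depends on the scale for 3 of the 4 probe sets, and the fourth was near 0 as deposited.

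The small heat shock protein Hspb1, which protects actin filaments and holds unfolded proteins, separated the cell types most clearly. Its brightest probe set read 3457.9, 3028.1 and 3592.4 in neurons and 15756.9, 16177.8, 17979.1 and 19726.3 in astrocytes. The means were 3359.5 ± 295 (SD, n = 3) and 17410 ± 1820.3 (SD, n = 4), with a gap between the groups far larger than the spread within either. The fit gave 5.18-fold more in astrocytes (log2 difference -2.37, SE 0.11, limma adjusted p = 3.59e-06). Probe sets 2 and 3 gave 4.79-fold and 4.85-fold (SE 0.13 and 0.18 in log2), and read 2075.8 to 2201.0 and 775.3 to 1051.8 in neurons against 8679.9 to 12045.1 and 3889.8 to 5885.1 in astrocytes. The fourth probe set disagreed. It read 226.5, 205.1 and 231.5 in neurons and 213.8, 142.5, 148.3 and 229.9 in astrocytes, with overlapping groups and a difference of 0.30 (SE 0.23, limma adjusted p = 0.363). The probe set shared with Asb2 read 41.8 to 52.5 in neurons and 30.9 to 106.1 in astrocytes and was too dim to test.

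With dose, all 4 Hspb1 probe sets were highest among the astrocyte arrays at 100 µg/ml. The 3 bright ones had centred changes of 0.58, 0.61 and 0.80 there, and deposited signals 1.25, 1.28 and 1.46 times the untreated. Their slopes of 0.17, 0.22 and 0.28 did not pass (limma adjusted p = 0.157, 0.0947 and 0.119). In neurons their centred changes lay between -0.31 and 0.14.

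Cryab, the other small heat shock protein and a partner of intermediate filaments, did not pass the test between cell types but varied widely with dose within astrocytes. Its brighter probe set read 4422.9, 4596.0 and 4667.1 in neurons and 4884.8, 3784.5, 3240.3 and 7322.1 in astrocytes. The second read 2353.6, 2598.9 and 2500.7 in neurons and 2365.6, 1829.4, 1149.8 and 3989.8 in astrocytes. On both, the astrocyte signal was lower at 1 µg/ml, lowest at 10 µg/ml and highest at 100 µg/ml, while the neuron arrays stayed close together. Centred changes were -0.36, -0.50 and 0.84 for the brighter and -0.36, -0.94 and 1.01 for the second. As deposited, the top dose was 1.5 and 1.69 times the untreated array, under 2-fold on both. A straight slope cannot describe this course, and those fitted (0.32 and 0.36) did not pass (limma adjusted p = 0.297 and 0.436). Differences between cell types were -0.00 (95% interval -0.60 to 0.59) and 0.23 (-0.63 to 1.10). The brighter had an SD of 126 over the 3 neuron arrays and 1810.3 over the 4 astrocyte arrays.

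The mitochondrial chaperonin Hspd1 was higher in neurons. Its brighter probe set read 6278.8, 6012.4 and 6794.9 in neurons and 4878.3, 4160.5, 5400.5 and 4928.5 in astrocytes, without overlap, a 1.32-fold difference (log2 0.40, SE 0.11, limma adjusted p = 0.0285). The second probe set read 2713.5, 2830.7 and 2862.0 against 1892.0, 1586.6, 2621.6 and 1783.1, also without overlap, and did not pass (0.53, SE 0.18, limma adjusted p = 0.054). The call of the brighter one was lost when each array was centred on its median (0.27, adjusted p = 0.234). In astrocytes the deposited signal of both probe sets was highest at 10 µg/ml and lowest at 1 µg/ml. Centred changes were 0.24 and 0.57 at 10 µg/ml, and -0.22 and -0.25 at 1 µg/ml. At 100 µg/ml the changes were 0.28 and 0.17 centred, and 0.01 and -0.09 as deposited.

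Hspe1, which caps the Hspd1 chamber and shares its promoter region, did not follow it between cell types. Its brighter probe set read 6235.6, 6140.1 and 7302.2 in neurons and 6664.4, 6340.0, 5698.9 and 5899.2 in astrocytes, with overlapping groups. The second read 2922.7, 3431.3 and 3387.7 in neurons and 2875.4, 3500.5, 2804.5 and 2977.1 in astrocytes. The differences were 0.09 (95% interval -0.14 to 0.32) and 0.10 (-0.18 to 0.38). At 10 µg/ml in astrocytes, where the deposited Hspd1 signal was highest, the centred changes of Hspe1 were -0.13 and 0.06. The difference between Hspd1 and Hspe1 was not tested.

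Serpinh1, the collagen chaperone of the endoplasmic reticulum, was higher in astrocytes. It read 3428.5, 3859.5 and 3442.1 in neurons and 5463.6, 4820.0, 4454.4 and 6381.9 in astrocytes, without overlap. The fit gave 1.46-fold more in astrocytes (log2 difference -0.55, SE 0.14, limma adjusted p = 0.0194). In astrocytes it was lower at 1 and 10 µg/ml (centred changes of -0.17 and -0.20) and higher at 100 µg/ml (0.48), the order also seen for Cryab. Of 11 other genes of collagen and its folding, 7 were higher in astrocytes (12.2% of all probe sets) and 0 in neurons (18.0%). Among them were the fibrillar collagens Col3a1 (-4.82), Col1a1 (-2.38), Col5a1 (-1.28) and Col1a2 (-1.0) and the collagen-modifying enzyme Plod1 (-0.73), all log2 of neurons minus astrocytes. At 100 µg/ml 0 of the 11 were 2-fold higher (9.41% of all probe sets) and 1 was 2-fold lower (13.5% of all), Col5a2 (-1.32). With dose 0 of the 11 rose in astrocytes (5.03% of all) and 3 fell (15.5% of all). The 3 were Col5a2 (slope -0.80, limma adjusted p = 0.00852), Plod2 (-0.55, 0.0433) and Col1a1 (-0.37, 0.0499). These slopes come only from the fit with every array, and how they depend on the fit was not looked at.

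Other chaperones were read from lists, each gene by its brightest probe set. Their dose slopes, here and for the co-chaperones below, come only from the fit with every array of both cell types. That fit passed 20.6% of all probe sets, against 0.701% with astrocytes fitted alone. How these slopes depend on the fit was not looked at. Of 8 further heat shock proteins tested, Hsph1, an HSP110 like Hspa4, was higher in neurons (0.50, limma adjusted p = 0.0164), and Hspb6, a small heat shock protein like Hspb1, was higher in astrocytes (-0.91, adjusted p = 0.00419). Hspa9, the HSP70 of mitochondria, read 480.1, 532.4, 745.6 and 1261.7 in astrocytes, in order of dose, and 716.8, 674.7 and 550.8 in neurons. Its astrocyte signal rose with dose (slope 0.70, limma adjusted p = 0.0115), with a centred change of 1.65 at 100 µg/ml. Hspa13, a microsomal HSP70, was also 2-fold higher there (1.16). So 2 of the 8 were 2-fold higher (9.41% of all probe sets) and 0 were 2-fold lower (13.5% of all). Hspa2, an HSP70 best known from testis, fell with dose (slope -0.64, adjusted p = 0.0317).

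Of 14 J proteins and co-chaperones tested, 5 were higher in neurons (18.0% of all probe sets) and 0 in astrocytes (12.2%). These were Dnajb5 (1.18), Ppid (0.80), Dnajc5 (0.63), Dnaja2 (0.47) and Dnaja1 (0.40), of which Dnajc5 is a chaperone of synaptic vesicles and Dnaja1 and Dnaja2 deliver clients to HSP70. Chordc1, an HSP90 co-chaperone, read 1293.1, 847.2, 681.9 and 368.1 in astrocytes and fell with dose (slope -0.83, limma adjusted p = 0.0149), with a centred change of -1.55 at 100 µg/ml. No other of the 14 reached 2-fold there, where 9.41% of all probe sets were 2-fold higher and 13.5% were 2-fold lower. Dnajb1, the stress-induced partner of Hspa1a, read 1310.7, 1314.1, 1545.4 and 1131.6 in astrocytes, with a slope of -0.08 that did not pass (adjusted p = 0.644). Of the cytosolic chaperonin list only Cct3 and Pfdn2 were tested, and neither passed. Hsf1, the factor that drives the heat shock response, did not pass between cell types (0.09, adjusted p = 0.74).

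Genes whose log2 signal followed a member most closely were ranked by Pearson's r over the 7 arrays, which serves only as a measure of likeness. For Hspa1a/Hspa1b these were Lemd2, a nuclear envelope protein (0.974), Psmb4, a proteasome subunit (0.972), and Mfge8, a secreted bridging protein (0.964). All read highest on the astrocyte array at 100 µg/ml, with Lemd2 at 1265.0, Psmb4 at 8844.1 and Mfge8 at 2100.7. For Hspb1 they were Nbl1, Arpc1b and Aebp1 (0.998 each), which like Hspb1 were higher on all astrocyte arrays than on any neuron array. For Hspd1 they were Dkc1 (0.988), Psma7 (0.977) and Ube2a (0.977). The points share the same 7 arrays, and those of Hspb1 fall into separate groups by cell type.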

How the data were processed

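Total RNA of 7 samples was labelled with biotin in a two-cycle procedure from 100 ng and hybridized to 1 Affymetrix array each, per the labels' protocols. The values are the intensities the authors deposited, on a linear scale, made with GCOS per the submitters' processing notes. The GCOS version was not given in the sources used here. Arrays had 2%-trimmed means of 500.731 to 500.874, so the scale was kept.

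Of 8799 probe sets, 59 controls were left out. Symbols came from the platform annotation: 7006 probe sets have 1 symbol, 308 several and 1426 none, and 6985 gene IDs were found in the RefSeq table. Signals were raised to the 25th percentile (17.9) before log2. Tests used limma 3.58.1 in R 4.3.3 (trended prior, two-sided, Benjamini-Hochberg, threshold 0.05), with 4709 probe sets, and were checked on simulated data. The simulation gave every array the spread of the neuron arrays, so it could not show how the wider spread among astrocyte arrays acts. Changes between single arrays used the 4453 (neurons) or 4252 (astrocytes) probe sets bright enough there. Plots used matplotlib 3.10.9 under Python 3.11.15.

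The members, gene lists and tests were chosen with earlier results of these data known. Named were all members, genes of the other chaperone lists past the cell type threshold or at 2-fold at 100 µg/ml (at most 6 a list), and the 3 genes most like Hspa1a/Hspa1b, Hspb1 and Hspd1. Hspa2, Plod2, Dnajb1, Cct3, Pfdn2, Hsf1 and the markers were named after their values were seen. Alternatives covered scaling, floor, filter, centring, prior, dose scale, reference and leaving out each array.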

Additional observations from a re-analysis of the deposited data

Results flagged for a closer look

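The Hspa1a/Hspa1b probe set in astrocytes read 1472.3 at 100 µg/ml and 341.7 to 417.6 on the other 3 arrays. The gap to the nearest array took up 0.863 of the whole range on the log2 scale, above the 95% critical value of Dixon's test for 4 values. The arrays differ in dose, so the distance is also that of the highest dose from the others. It was the only 1 of 22 member probe sets looked at whose highest or lowest astrocyte array stood that far apart, about as many as chance gives at this level.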

How the results depend on the processing

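Member probe sets that differed between cell types numbered 8 (30.2% of all tested). With the probe sets of a gene averaged, 5 of the 8 genes tested did (30.7% of all). Over the fits that leave out 1 array the count ranged from 3 to 10, and the share of all from 19.9% to 44.6%. Under the 15 alternatives Hspb1 (its brightest probe set or the mean over its probe sets) kept its direction and its call (log2 -2.50 to -1.65, adjusted p 1.74e-06 to 9.95e-05). Hsp90ab1 (probe set 3 of 4) lost its call in 7 of 14 (adjusted p up to 0.242), Hspd1 in 7 (up to 0.234), Hspa1a in 4 of 14 (up to 0.0995), Hspa4 in 3 (up to 0.0628) and Serpinh1 in 2 (up to 0.0813), with no change of direction.

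Astrocyte dose trends passed for 1 member probe set, and for 20.6% of all probe sets in either direction. The number was 0 with astrocytes fitted alone (0.701% of all), 0 with no filter (0.114%) and 0 with ranked doses (0.998%). It was 2 with no floor (20.6%), and 0 to 6 with 1 array left out (0.508% to 35.8%). With a constant prior (18.3%) the 1 call was Hspa4, falling, and no floor added Hspa4. With probe sets averaged (21.3%), 8 genes were tested and the 1 call was again Hspa4, falling. Hspa1a/Hspa1b was not among the 8. The Hspa1a/Hspa1b slope was -0.04 without the 100 µg/ml array, and lost its call with the same sign in 8 of 14 alternatives (adjusted p 0.00293 to 0.95 over all 14).

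At 100 µg/ml 3 probe sets were 2-fold higher (9.41% of all). The number was 1 with a filter at the 75th percentile (435.7), where 8.6% of all were. That filter left 18 member probe sets, without Hspa1a. With probe sets averaged it was 1 gene of the 8 tested, Hspa1a (8.15% of all), and Hspa1a/Hspa1b was not among the 8. Hspa1a/Hspa1b ranged from 1.82 to 2.34, Hspa1a from 1.27 to 1.68 and the second Cryab probe set from 0.66 to 1.43. Hsp90ab1, Hspe1, Hspd1 and Haus8l2/Hspa8 changed sign between settings, all under 2-fold. The change cannot be computed without the untreated or the 100 µg/ml array. The array at 1 µg/ml as reference was chosen after seeing the data. Over all probe sets the counts ranged from 834 to 2113 for cell types, from 10 to 1690 for astrocyte trends and from 392 to 1744 for 2-fold changes. The dose was also entered as a block, on the 6 arrays whose dose both cell types had. Then 8 member probe sets differed between cell types (39.7% of all), without Hsp90ab1.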
